A study of Mus musculus with 6 samples.

Results

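The 9 genes described here encode enzymes and enzyme subunits of the tricarboxylic acid (TCA) cycle: citrate synthase (Cs), the 3 subunits of the NAD-dependent isocitrate dehydrogenase (Idh3a, Idh3b and Idh3g), the first component of the oxoglutarate dehydrogenase complex (Ogdh), 2 subunits of succinyl-CoA ligase (Sucla2 and Suclg1), fumarate hydratase (Fh1) and mitochondrial malate dehydrogenase (Mdh2). The rule takes them by name and uses no measured value, but it was set with earlier results of these data known. All 9 were measured among 19938 genes on the arrays, each by 1 probe set. Expression was measured in RAW264.7 cells, an established mouse macrophage-like line, 18 h after transfection with miR-342-3p mimics or with negative control mimics (3 arrays in each group). Both groups were therefore transfected cells of the same line, plated at 500000 cells per well, and no untransfected cells were analysed here. Total RNA of whole wells was used (150 ng per sample), in which fewer cells of a kind and less RNA per cell cannot be told apart. The replicates are separate experiments according to a figure legend of the study.

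In the mitochondrial matrix the TCA cycle oxidizes the acetyl group of acetyl-CoA to carbon dioxide and passes the electrons to NADH and to the respiratory chain. Its intermediates also leave the cycle as precursors of lipids, amino acids and signaling metabolites. In macrophages the cycle is known for being rewired upon activation: classically activated cells accumulate citrate, succinate and itaconate, whereas IL-4-stimulated cells keep an intact oxidative cycle. The study followed miR-342-3p in the setting of macrophage activation by IL-4, and the comparison asks which transcripts of the cycle differ when this microRNA is supplied to RAW264.7 cells as a mimic.

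The mature microRNA, to which the mimic corresponds, is given from the RefSeq annotation of GRCm38.p6 (chr12:108658680-108658702, + strand) with its seed, bases 2 to 8, in capitals. The seed is the stretch that pairs with target transcripts. Transcript sequences were not used here, so matches to the seed in the 9 genes were not counted.
mmu-miR-342-3p: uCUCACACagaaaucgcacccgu

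Values are log2 intensities after RMA, the authors' background correction, normalization and probe set summary. Changes are log2 fold changes, miR-342-3p minus control, and a gene was called at an FDR under 0.1 in limma over all 19938 genes. Control arrays correlated at 0.998 with each other across genes, and miR-342-3p arrays at 0.991 to 0.993. miR-342-3p replicate 3 lay nearer to the controls (0.996) than replicates 1 and 2 did (0.985 to 0.988). Of 9 measured macrophage genes Itgam (-0.35) and Fcgr1 (-0.35) were lower, and Spi1 (0.35) and Mertk (0.32) higher. Their mean was 10.51 to 10.68 in miR-342-3p arrays and 10.64 to 10.65 in controls, while 7 fibroblast genes averaged 6.93 to 7.26 in miR-342-3p arrays and 6.78 to 6.88 in controls, with 1 of them, Pdgfra, higher (0.49). For 7 lymphocyte genes the means were 5.61 to 5.98 in miR-342-3p arrays and 5.60 to 5.69 in controls. Mean control values were at most 7.93 for the fibroblast and 6.64 for the lymphocyte genes. In miR-342-3p replicates 1, 2 and 3 the median change was 0.38, 0.06 and 0.08 for the fibroblast genes. It was 0.24, -0.04 and 0.07 for the lymphocyte genes and 0.11, 0.04 and 0.03 for all genes. The part of these markers in the results below was not tested. The arrays hold no measure of the mimic itself. The probe set for the Mir342 hairpin locus had a log2 fold change of 0.38 (FDR = 0.105) and its host gene Evl of 0.12 (FDR = 0.426). Mir342 was at a low level (mean control value 5.43), and its changes in miR-342-3p replicates 1, 2 and 3 were 0.67, 0.19 and 0.29. The anti-apoptotic gene Bcl2l1, also read as a check of the labels, was lower (-0.60, FDR = 0.0141). The study chose Bcl2l1 from genes lower in its own array comparison of these transfected cells, so its fall here is no independent check.

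Of the 9 TCA cycle genes 3 had less signal after miR-342-3p transfection, namely Idh3a (-0.59), Fh1 (-0.40) and Sucla2 (-0.48). None was higher, and 6 missed the threshold. Among all genes 7.42% were called lower and 4.14% higher. At an unadjusted p under 0.05 limma gave 5 members lower and 0 higher, beside 13.0% of all genes lower and 12.5% higher. The methods' t-test, which the study states for group comparisons in general and not for the arrays, also gave 5 members lower and 0 higher, beside 9.81% of all genes lower and 10.4% higher. The log2 fold change was negative in 8 of the 9 members, with a median of -0.25 beside 0.069 over all genes. In 7 members every miR-342-3p array lay below every control array, which was the case in 15.5% of all genes. The members had mean control values between 9.05 and 12.27, and changes in these arrays varied with the level of a gene. Of the 7365 genes with a mean log2 value of 8 or more, a set formed after the data had been seen, 59.6% had a negative change, against 35.5% of all genes, with a median of -0.058. In the fit over all genes 15.2% of them were called lower, beside the same 3 members. In a fit of these genes alone 23.3% were called lower and 5 of the 9 members were, with Idh3b and Mdh2 joining the 3 named above. Of the genes at this level 31.9% had every miR-342-3p array below every control array. Over the 9 members the mean log2 value per array was 10.65 to 10.85 in miR-342-3p arrays and 11.02 to 11.05 in control arrays. The median change of the members was -0.31, -0.12 and -0.20 in miR-342-3p replicates 1, 2 and 3. Among genes with a mean log2 value of 8 or more it was -0.13, 0.02 and -0.04.

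**Figure D1:**
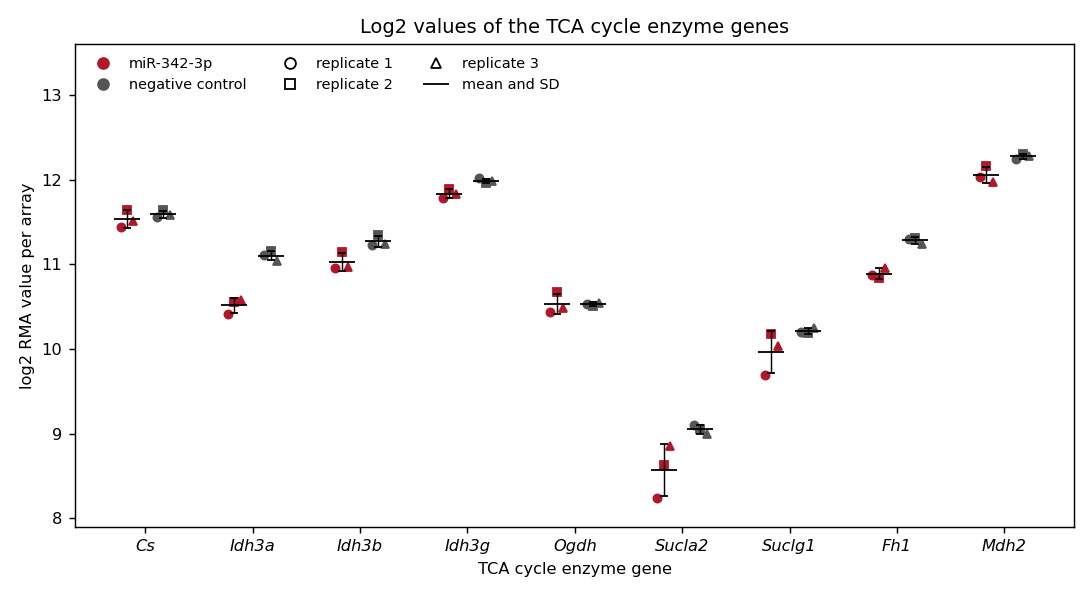
Log2 RMA value (vertical axis) of each TCA cycle gene in every array, with miR-342-3p in red left of negative control in grey, the symbol giving the replicate and lines the mean and SD. The groups lie apart in 7 genes and overlap in Cs and Ogdh, and the miR-342-3p values of Sucla2 are the most spread (SD 0.31); heights of different genes come from different probe sets and are not comparable.

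**Figure D2:**
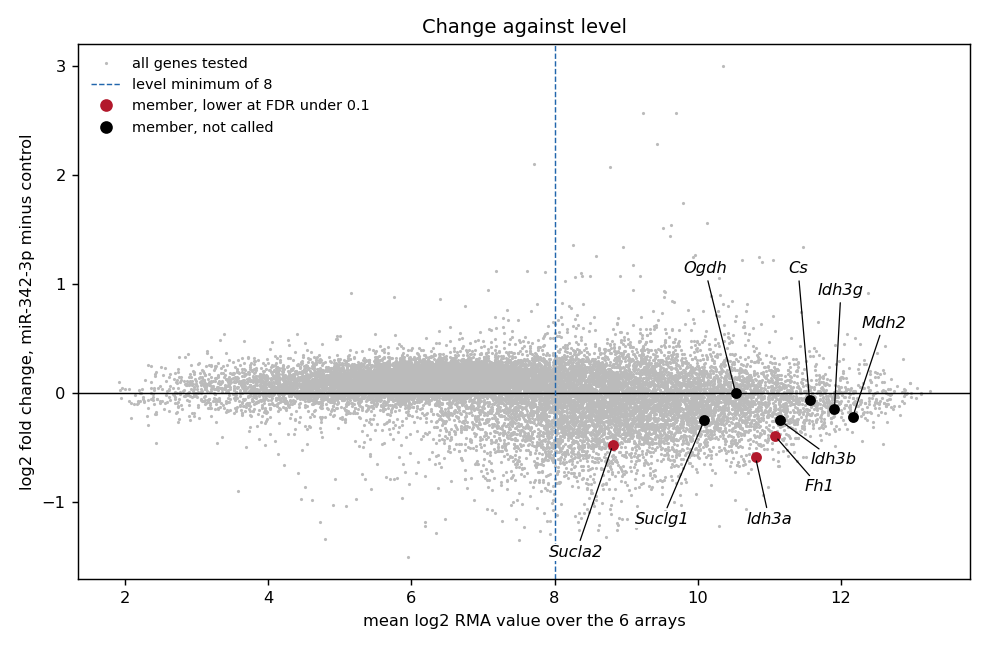
Log2 fold change (vertical axis, miR-342-3p minus control) against the mean log2 value over the 6 arrays (horizontal axis), with all 19938 genes in grey, members called lower in red and other members in black. All 9 members lie right of the dashed line at 8, where the cloud of genes is centered slightly below 0 (median -0.058).

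Citrate synthase joins acetyl-CoA to oxaloacetate and so opens the cycle. Cs had log2 values of 11.44, 11.65 and 11.51 in miR-342-3p-transfected cells, against 11.55, 11.64 and 11.58 in control cells. The groups overlapped, since the replicate 2 value of miR-342-3p was the highest of all. The log2 fold change was -0.06 (95% interval -0.24 to 0.13, FDR = 0.636), so the interval includes falls of up to 0.24 on the log2 scale.

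Isocitrate dehydrogenase 3, the NAD-dependent enzyme that turns isocitrate into oxoglutarate, is built of a catalytic alpha subunit, encoded by Idh3a, and of beta and gamma subunits, encoded by Idh3b and Idh3g. Idh3a had values of 10.41, 10.55 and 10.58 in miR-342-3p arrays and 11.11, 11.15 and 11.04 in control arrays. All miR-342-3p values were below all control values, and the gap between the groups was larger than the range within either. The means were 10.51 ± 0.090 in miR-342-3p and 11.10 ± 0.056 in control cells (SD, n = 3 each), which gives a log2 fold change of -0.59 ± 0.080 (standard error, limma FDR = 0.0119) or 33.5% less signal. In a ranking of all 19938 genes by log2 fold change, starting with the largest fall, Idh3a stood at place 453. It was called lower when any 1 array was left out, with FDR values between 0.00606 and 0.0875.
Idh3b was at 10.96, 11.14 and 10.96 in miR-342-3p cells and at 11.23, 11.34 and 11.24 in control cells. The groups did not overlap, but the log2 fold change of -0.25 (95% interval -0.44 to -0.06) did not pass the threshold (FDR = 0.117). Idh3b was called in 5 of the 18 alternatives of the analysis, with the trend and robust prior (FDR = 0.0491) among them. Idh3g, a gene of the X chromosome, had values of 11.79, 11.89 and 11.83 in miR-342-3p cells and 12.01, 11.96 and 11.98 in control cells. These did not overlap either, with a log2 fold change of -0.15 (95% interval -0.31 to 0.02, FDR = 0.228).
The subunits of this enzyme could thus be compared within each array. The log2 difference Idh3a minus Idh3b was -0.51 ± 0.11 in miR-342-3p arrays and -0.17 ± 0.048 in control arrays (SD, n = 3 each). The change of this difference was -0.34, that is, a lower Idh3a relative to Idh3b in miR-342-3p arrays. For Idh3a minus Idh3g the differences were -1.32 ± 0.068 in miR-342-3p and -0.88 ± 0.066 in control arrays, a change of -0.44. In both pairs the groups did not overlap (exact permutation test, two-sided, p = 0.1, the smallest p that 3 arrays against 3 allow; 0.2 after adjustment over the 4 pairs compared). Idh3b minus Idh3g changed by -0.10 (exact permutation p = 0.2, adjusted 0.2), and here the groups overlapped. None of these comparisons could have reached a p of 0.05.

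The oxoglutarate dehydrogenase complex makes succinyl-CoA from oxoglutarate, and Ogdh encodes its thiamine-dependent component. Ogdh was at 10.44, 10.67 and 10.48 in miR-342-3p cells and at 10.53, 10.50 and 10.54 in control cells. The control values lay within the range of the miR-342-3p values. The log2 fold change was 0.0022 (95% interval -0.19 to 0.19, FDR = 0.988), and its sign depended on the array left out (range -0.07 to 0.05).

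Succinyl-CoA ligase then forms succinate together with ATP or GTP. The alpha subunit, encoded by Suclg1, is common to both forms, and the beta subunit encoded by Sucla2 gives the ATP-forming enzyme. Sucla2 had values of 8.24, 8.63 and 8.85 in miR-342-3p arrays and 9.10, 9.05 and 8.99 in control arrays. The groups did not overlap, but the miR-342-3p arrays were spread widely, with differences to the control mean of -0.81, -0.42 and -0.20 in replicates 1, 2 and 3. The means were 8.57 ± 0.31 in miR-342-3p and 9.05 ± 0.054 in control cells (SD, n = 3 each), and the log2 fold change was -0.48 ± 0.14 (standard error, FDR = 0.0827) or 28.2% less signal. Without miR-342-3p replicate 1 the log2 fold change of Sucla2 was -0.31 (FDR = 0.0999), and it missed the threshold without miR-342-3p replicate 2 (FDR = 0.107) and without control replicate 1, 2 or 3 (FDR = 0.264, 0.235 and 0.212).
Suclg1 was at 9.69, 10.18 and 10.03 in miR-342-3p cells and at 10.20, 10.19 and 10.25 in control cells. Replicate 2 of miR-342-3p lay just below the lowest control value, and replicate 1 was again the lowest. The log2 fold change of Suclg1 was -0.25 (95% interval -0.52 to 0.02, FDR = 0.225). It was called only without miR-342-3p replicate 2 (-0.35, FDR = 0.0934) and was -0.11 without replicate 1. Within arrays, Sucla2 minus Suclg1 was -1.39 ± 0.19 in miR-342-3p and -1.16 ± 0.084 in control cells (SD, n = 3 each). The change of -0.23 gave an exact permutation p of 0.2 (two-sided, adjusted 0.2), and the groups overlapped.

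Fumarate hydratase adds water to fumarate to give malate. Fh1 had values of 10.87, 10.83 and 10.96 in miR-342-3p arrays and 11.30, 11.31 and 11.24 in control arrays. The groups lay well apart, with little spread in either. The means were 10.89 ± 0.063 in miR-342-3p and 11.28 ± 0.040 in control cells (SD, n = 3 each), and the log2 fold change was -0.40 ± 0.074 (standard error, FDR = 0.0260) or 24.0% less signal. Fh1 was called when any 1 miR-342-3p array was left out (FDR 0.0145 to 0.0461), and it missed the threshold when control replicate 1, 2 or 3 was left out (FDR = 0.147, 0.148 and 0.120), with log2 fold changes between -0.42 and -0.38.
Mitochondrial malate dehydrogenase closes the cycle by regenerating oxaloacetate. Mdh2 was at 12.03, 12.16 and 11.96 in miR-342-3p cells and at 12.24, 12.30 and 12.28 in control cells. The groups did not overlap, and the log2 fold change was -0.22 (95% interval -0.40 to -0.04, FDR = 0.131). Mdh2 was called in 5 of 18 alternatives, among them the fit with the trend and robust prior (FDR = 0.0325).
Each array was left out in turn, and the fit without miR-342-3p replicate 3, which lay nearer to the controls, is given here. Idh3a, Fh1 and Sucla2 were the members called, with log2 fold changes of -0.62, -0.43 and -0.62, and the median over the 9 members was -0.22. That fit called 2422 of all genes lower and 2104 higher, against 1479 and 825 in the main fit. In each of the 3 fits without 1 control array Idh3a was the only member called. Without control replicate 1, 2 or 3, only 102, 115 and 140 of all genes were called lower, against 1479 in the main fit.

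The promoters of members called lower and of a member with little change are shown for comparison of their letters. Of the 9 members 8 had an entry among the RefSeq promoters of GRCm38.p6, and Idh3a was not matched. Given are the 150 bases before the start of Sucla2 (chr14:73552636-73552785, + strand) and Fh1 (chr1:175625636-175625785, - strand), both called lower, and of Cs (chr10:128337577-128337726, + strand). Capitals mark the CCAAT box and the GC box GGGCGG on either strand, so ATTGG and CCGCCC as well.
Sucla2: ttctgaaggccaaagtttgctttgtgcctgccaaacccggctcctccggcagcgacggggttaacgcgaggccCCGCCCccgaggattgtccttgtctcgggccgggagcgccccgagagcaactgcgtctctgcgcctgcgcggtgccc
Fh1: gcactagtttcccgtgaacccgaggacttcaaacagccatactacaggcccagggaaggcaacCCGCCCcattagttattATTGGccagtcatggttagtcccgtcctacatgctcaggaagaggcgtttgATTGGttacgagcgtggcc
Cs: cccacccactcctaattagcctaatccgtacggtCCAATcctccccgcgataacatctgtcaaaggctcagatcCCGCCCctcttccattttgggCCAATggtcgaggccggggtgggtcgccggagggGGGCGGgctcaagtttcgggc
In windows of 250 bases before to 50 after the start, CCAAT was present in 4 of the 8 members, in at least 1 of the windows of a gene, and in 37.4% of 32851 promoters. GGGCGG was present in 5 members and in 35.7% of promoters. The ETS motif CCGGAAG was found in 2 members (8.86% of promoters) and the core TGCGCA of the NRF1 motif in 2 (7.76%). Members were counted by gene over all windows (6 for Ogdh), while the percentages are of single promoters, so these are unlike measures. Both strands were searched, and none of the motifs contains another. Fh1 and Cs, of which only the first was called, each held both a CCAAT and a GGGCGG match, and Sucla2 held GGGCGG. These matches describe the letters only, and binding was not measured.

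The remaining enzymes of the cycle were taken as a list of 8 genes, of which 7 were measured and aconitase 2 was not. Of the 7, 4 were lower and none was higher (FDR under 0.1, beside 7.42% and 4.14% of all genes). At an unadjusted p under 0.05, 5 were lower and 0 higher in limma (13.0% and 12.5% of all genes), and 4 and 0 in the methods' t-test (9.81% and 10.4% of all genes). The median log2 fold change was -0.33. Succinate dehydrogenase, which oxidizes succinate to fumarate and is also complex II of the respiratory chain, has 4 subunits. Sdhd, a membrane anchor, was at 10.91, 10.95 and 10.91 in miR-342-3p arrays and at 11.50, 11.48 and 11.38 in control arrays. All replicates of Sdhd differed from the control mean by about the same amount, the fitted change being -0.53 ± 0.074 (standard error, FDR = 0.0124), and it was called when any 1 array was left out. The flavoprotein subunit Sdha had a log2 fold change of -0.44 (FDR = 0.0210), and Sdhc, the other membrane anchor, of -0.29 (FDR = 0.0715). The iron-sulfur subunit Sdhb was not called, at 0.13 (95% interval -0.07 to 0.34, FDR = 0.346).
Dld, the dihydrolipoyl dehydrogenase that the oxoglutarate and pyruvate dehydrogenase complexes have in common, was at 8.86, 9.08 and 9.41 in miR-342-3p cells and 9.67, 9.62 and 9.56 in control cells. The groups did not overlap, and replicate 3 of miR-342-3p lay closest to the controls. Its log2 fold change was -0.50 ± 0.13 (standard error, FDR = 0.0615). It was called in 1 of the 6 fits with an array left out and was at -0.37 without miR-342-3p replicate 1. Dlst, the succinyltransferase of the oxoglutarate dehydrogenase complex, was at 0.04 (FDR = 0.707), and Suclg2, the beta subunit of the GTP-forming succinyl-CoA ligase, at -0.33 (FDR = 0.145), with -0.27 in its other probe set. In each of the 3 fits without 1 control array Sdhd was the only one of these 7 genes called. Those fits called 102 to 140 of all genes lower, against 1479 in the main fit. Over all 16 measured genes of the cycle, 7 were lower, none was higher, 9 were not called and 13 had a negative change, with a median of -0.27 and 12 without overlap. Among all genes 35.5% had a negative change and 15.5% lay below the controls without overlap. At a mean log2 value of 8 or more these shares were 59.6% and 31.9%, and 15.2% were called lower.

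**Figure D3:**
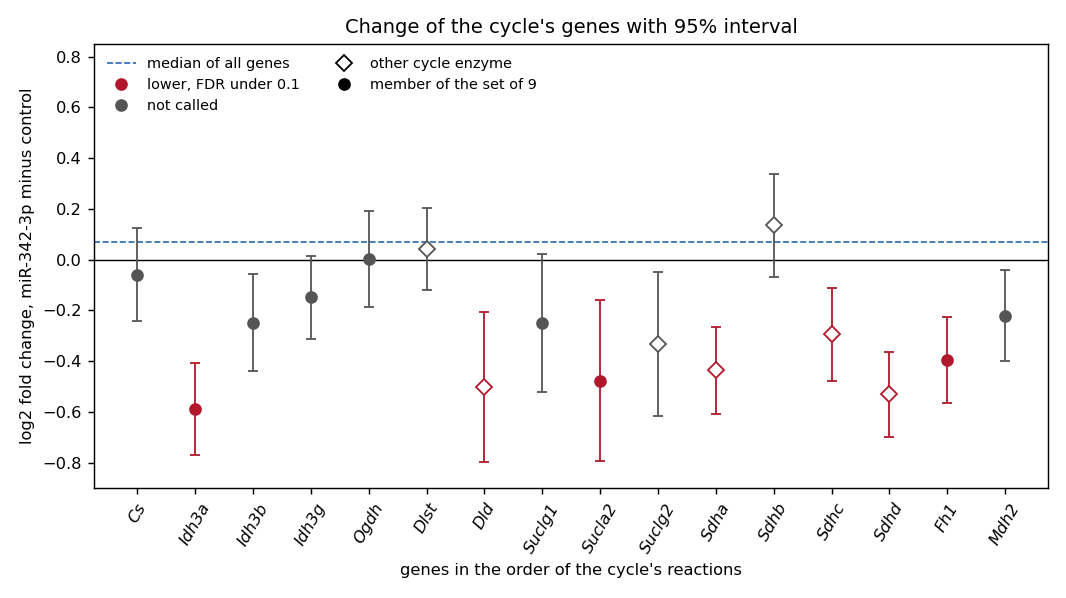
Log2 fold change (vertical axis, miR-342-3p minus control) with 95% interval for 16 genes in the order of the cycle's reactions; filled circles are the 9 members, open diamonds the other enzymes, red marks genes lower at an FDR under 0.1 and the dashed line the median of all genes (0.069). Idh3a (-0.59) and Sdhd (-0.53) lie lowest, and Ogdh, Dlst and Sdhb lie above 0.

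The genes around the cycle were read from 5 further lists with 45 measured of 51 listed genes. Of these 10 were lower, 4 were higher and 31 were not called, with a median of -0.068. Among all genes 7.42% were called lower and 4.14% higher, with a median of 0.069. At a mean log2 value of 8 or more, 15.2% of genes were called lower, with a median of -0.058. The counts of each list below stand beside the same shares. At the entry of pyruvate, 2 of 12 genes were lower and 1 was higher. The pyruvate dehydrogenase kinases, which inactivate pyruvate dehydrogenase, differed in direction: Pdk1 had a log2 fold change of -0.43 (FDR = 0.0336), Pdk3 of -0.43 (FDR = 0.0514) and Pdk2 of 0.42 (FDR = 0.0473).
Among 11 genes that feed or drain the cycle, 4 were lower and 2 higher. Acod1, which makes itaconate from the cycle intermediate aconitate and is induced in inflammatory macrophages, was at 9.73, 9.98 and 9.48 in miR-342-3p arrays and at 8.67, 8.69 and 8.61 in control arrays. Every miR-342-3p value was above every control value. The log2 fold change was 1.08 ± 0.12 (standard error, FDR = 0.00723), a 2.11-fold difference, and Acod1 was called when any 1 array was left out. Pck2, the mitochondrial phosphoenolpyruvate carboxykinase, was higher as well (0.44, FDR = 0.0420). Me2, a mitochondrial malic enzyme, was lower (-0.50, FDR = 0.0163), as was Nnt, the transhydrogenase that makes NADPH from NADH (-0.40, FDR = 0.0517).
Of the 5 NADP-linked or cytosolic counterparts of cycle enzymes, the cytosolic malate dehydrogenase gene Mdh1 was lower (-0.28, FDR = 0.0794) and 4 were not called. Of 7 mitochondrial carriers, the aspartate-glutamate carrier gene Slc25a13 was lower (-0.43, FDR = 0.0255). Of 10 genes for cofactors and assembly, 2 were lower and 1 higher. Lias, the lipoic acid synthase on which the oxoglutarate and pyruvate dehydrogenase complexes depend, was at -0.41 (FDR = 0.0353) and Sdhaf2, which helps to attach the flavin of Sdha, at -0.37 (FDR = 0.0759). Sdhaf4, a further assembly factor of succinate dehydrogenase, was at 0.30 (FDR = 0.0916) in the probe set used and at -0.10 in its other probe set, so its direction depended on the probe set. In a list of 3 minor relatives of cycle enzymes no gene was called by limma, and at an unadjusted p under 0.05 there were 0 genes in limma and 0 in the methods' t-test. In the 3 fits without 1 control array Acod1 was called in each and Me2 in 2, and no other gene of the 5 lists was. Those fits called 102 to 140 of all genes lower and 88 to 100 higher. Mdh1 and Sdhaf4 also missed the threshold without miR-342-3p replicate 1.

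**Figure D4:**
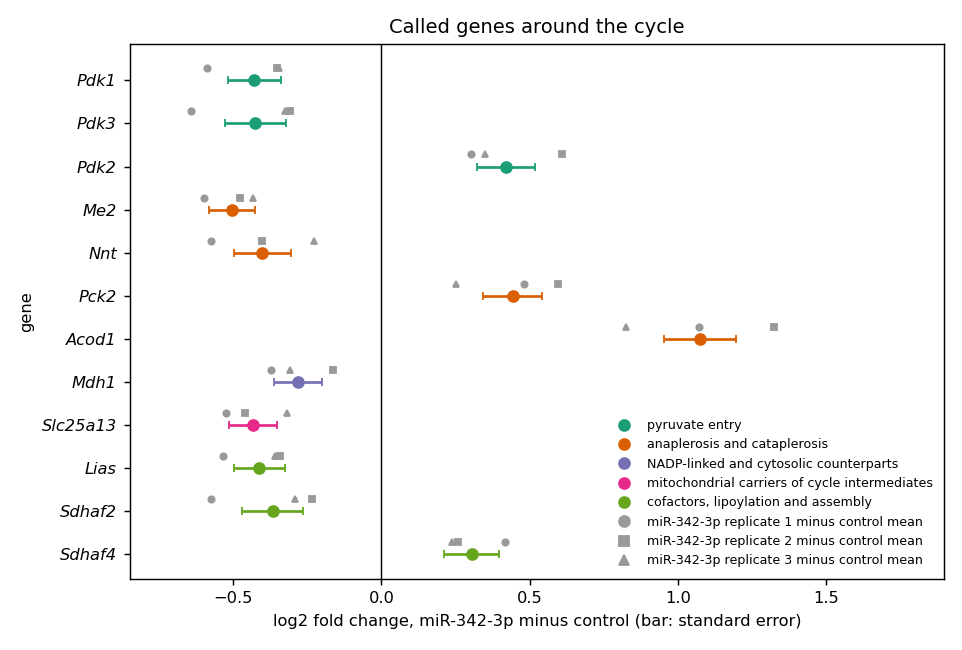
Log2 fold change (horizontal axis, miR-342-3p minus control) of the called genes named in each of 5 lists around the cycle, up to 4 genes per list; colored points with bars give the fitted change and its standard error, and grey symbols the difference of each miR-342-3p replicate to the control mean. Acod1 stands furthest to the right (1.08), and in each gene the 3 replicates lie on 1 side of 0, which the choice of called genes favors.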

How the data were processed

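Gene expression was measured in RAW264.7 cells on Affymetrix whole-transcript arrays, 3 with miR-342-3p and 3 with negative control mimics, with conditions and replicate numbers from the labels. The authors processed the scans with RMA and deposited log2 values of 35556 probe sets, 1 per array. Its version was not given in the sources used here. Array medians differed by at most 0.151, and no arrays were identical. Precision is set by the number of arrays.

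By the platform annotation 21789 probe sets had 1 gene, 1621 several and 12146 were unnamed here; 21698 Entrez matches to the RefSeq table of GRCm38.p6 changed 0 symbols. For 999 genes with several probe sets, the one of largest interquartile range was used. All 19938 genes were fitted with lmFit and eBayes (limma version 3.58.1, R version 4.3.3; prior degrees of freedom 4.79, residual 4), with Benjamini-Hochberg adjustment. The steps were tested on simulated data. Python version 3.11.15 and matplotlib version 3.10.9 served for the figures.

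The members and lists were chosen with earlier results of these data known. The text names all members, the other cycle enzymes, the label check genes and up to 4 called genes of each further list; the called marker genes were named after their values had been seen. Alternatives were other probe set rules, scalings, a filter on low genes, array weights, a trend and robust prior, the replicate number as a block, the methods' t-test, an FDR of 0.05 and each array left out. The study used limma for these arrays and named the t-test for comparing groups in general. A fit of genes with a mean of 8 or more was added after seeing the data.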

Additional observations from a re-analysis of the deposited data

How the results depend on the processing

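The members called lower were 5 with low genes left out, 6 with the trend and robust prior, 5 among genes with a mean of 8 or more and 0 with the methods' t-test (5 lower at an unadjusted p under 0.05, beside 9.81% of all genes). In the same settings, in this order, 1780, 1763, 1718 and 22 of all genes were called lower, against 1479 in the main fit. The count of members was 2 with every probe set tested, 2 with centered arrays, 2 at an FDR under 0.05 and 4 with array weights. There 535, 1379, 661 and 1340 of all genes were called lower. With 1 array left out 1 to 5 members were called lower and 0 higher, and the median of the members was -0.31 to -0.21. Idh3a kept its call in 17 of 18 alternatives (not in the t-test, FDR = 0.102), Fh1 in 14 and Sucla2 in 9. The log2 fold changes of these 3 were negative in every alternative. This is no further support, since many alternatives leave the values of a gene unchanged. With all miR-342-3p arrays below all controls, leaving out 1 array cannot change the sign.

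Over all genes 1479 were called lower and 825 higher. These were 535 and 259 with every probe set tested, 1379 and 408 with centered arrays, 1422 and 1826 with quantile normalization repeated, 22 and 26 with the t-test, 661 and 312 at an FDR under 0.05, and 102 to 2422 and 88 to 2104 with 1 array left out. Other cycle enzymes called lower were 2 with every probe set tested, 1 with the t-test, 2 at an FDR under 0.05 and 1 to 5 with 1 array left out, and 0 were higher. Of the neighboring lists 2 were lower and 1 higher with every probe set tested, 6 lower with centered arrays, 0 and 0 with the t-test (13 and 4 unadjusted), 4 lower at an FDR under 0.05, 2 higher among genes with a mean of 8 or more, and 0 to 14 lower and 1 to 5 higher with 1 array left out. The unadjusted t-test counts of these lists stand beside 9.81% of all genes lower and 10.4% higher. Sdhaf4 was at -0.10 with the probe set of highest mean (FDR = 0.595). The subunit differences, with 1 array left out, were -0.40 to -0.30 (Idh3a minus Idh3b), -0.48 to -0.40 (Idh3a minus Idh3g), -0.14 to -0.05 (Idh3b minus Idh3g) and -0.34 to -0.15 (Sucla2 minus Suclg1). The causes were not tested.

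Same-numbered arrays had correlations of -0.31, -0.16 and -0.11 in their deviations, and arrays of different numbers -0.07 to 0.23. With 3 arrays per group these values cannot decide whether the numbers pair the samples. With the replicate block, which changed no member call, the genes called lower and higher were 3 and 0 of the members, 3 and 0 of the other cycle enzymes, 9 and 3 of the neighboring lists, and 1445 and 550 of all genes. Of the genes named above, Sdhc (FDR = 0.133), Mdh1 (FDR = 0.150) and Sdhaf4 (FDR = 0.153) missed the threshold under the block. Array weights were 0.235 to 0.925 for miR-342-3p and 1.69 to 3.36 for control arrays, so 1 common spread per gene describes unequal groups.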
